A study of Mus musculus with 12 samples.

Results

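The intermediate filament and lamin genes described here were 10 genes listed by symbol as members of this family, with no threshold on their measured values. They were the type III filament genes Vim and Des, the type IV filament gene Nes, the lamin genes Lmna, Lmnb1 and Lmnb2, and the simple-epithelial keratin genes Krt7, Krt8, Krt18 and Krt19. The 10 genes were followed over all 12 cells, out of 21729 genes in the count table. Each cell was 1 cultured adult mouse cardiac progenitor cell (CPC), picked by hand. The cells were sorted as c-Kit+ and Lin- from the non-myocyte fraction of hearts of 12-week-old FVB mice, with 2 hearts pooled per preparation. They grew on gelatin in medium with serum, leukemia inhibitory factor, basic fibroblast growth factor and epidermal growth factor through 5 passages. Freshly isolated cells were not analysed here, so the 12 cells formed 1 group with no contrast between conditions. The labels do not say from which culture or animal each cell came. All spreads below are therefore spreads between cells, and no test was run.

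Intermediate filaments are rope-like polymers that give cells mechanical resistance. Cytoplasmic filaments differ by lineage: vimentin is the usual filament of mesenchymal cells, desmin of muscle, nestin of progenitor and regenerating cells, and keratins of epithelia, where a type I chain must pair with a type II chain. Lamins line the inner face of the nuclear envelope. The A-type lamins from Lmna are high in stiff and differentiated tissues, and the B-type lamins from Lmnb1 and Lmnb2 are made in most cell types and stay attached to the membrane through a farnesyl group.

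Cell 1 was the shallowest library, with 3453708 counts, cell 12 the deepest, with 5690184, and mitochondrial transcripts took 1.02% to 2.77% of it. A floor of 3 counts, the one-sided 95% upper limit that a count of 0 allows, was equal to 0.527 to 0.869 CPM (counts scaled to 1000000 per cell). The central 95% exact Poisson intervals used for single values are wider at a count of 0, with an upper bound of 3.69 counts. Intervals and floors cover counting error only, because the libraries carried no molecular identifiers. Kit, the receptor used in the sort, had counts in 1 cell, 21 counts in cell 10. The hearts were labelled female, yet the Y-linked genes Ddx3y and Eif2s3y had counts in 12 cells. Cells 3, 10 and 11 stood apart by markers of other cell types. The sum of 5 blood markers reached 1622 CPM in cell 3 against 75.6 CPM in the next cell, and 1463 CPM of it was Cd53. Csf1r was also highest in cell 3, at 59.1 CPM, Cd68, at 69.1 CPM, was near the 64.4 CPM of cell 9, and the pan-leukocyte gene Ptprc was at 0 there. Of the fibroblast markers, Dcn was highest in cell 3, at 223 CPM against 12.4 CPM in the next cell. Pdgfra was highest there too, at 276 CPM against 175 CPM in cell 10. Col1a1 (12.9 CPM) and Col1a2 (22.1 CPM) were lower in cell 3 than in all cells but cell 10. The endothelial sum (10 genes, among them Pecam1 and Cdh5) reached 7565 CPM in cell 10 against 47.4 CPM in the next. Emcn gave 3322 CPM of it and Kdr 13.1 CPM, and Cldn5 and Vwf were at 0 in all cells. In cell 11 the smooth muscle and pericyte sum reached 3791 CPM against 208 CPM in the next, nearly all of it Acta2. The relations chosen for description below are shown with and without cells 3 and 10, and those of Vim and Nes with the cell cycle sums also without cell 11.

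The part of the RefSeq promoter table scored here held 8 of the 10 genes on the GRCm38.p6 assembly, and no promoter was scored for Krt19 or Lmnb1. The promoters of Vim and Nes, the cytoplasmic filament genes counted in every cell, are shown against those of Krt8 and Krt18, which were counted in no cell. Each runs 5′ to 3′ on the gene's own strand, from 250 bases before to 50 bases after the annotated start. Capitals mark matches, on either strand, to the TATA-box letters TATAAA, to the GC-box letters GGGCGG or to the CCAAT-box letters CCAAT. Vim lay at chr2:13574061-13574360 on the plus strand, Nes at chr3:87970843-87971142 (plus), Krt8 at chr15:102004293-102004592 (minus) and Krt18 at chr15:102027966-102028265 (plus).
Vim: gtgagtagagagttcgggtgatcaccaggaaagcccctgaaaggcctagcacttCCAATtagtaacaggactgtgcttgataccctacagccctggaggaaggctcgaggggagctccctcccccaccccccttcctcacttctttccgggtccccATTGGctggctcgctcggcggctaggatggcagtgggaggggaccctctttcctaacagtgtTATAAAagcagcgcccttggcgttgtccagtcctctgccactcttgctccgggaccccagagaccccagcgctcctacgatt
Nes: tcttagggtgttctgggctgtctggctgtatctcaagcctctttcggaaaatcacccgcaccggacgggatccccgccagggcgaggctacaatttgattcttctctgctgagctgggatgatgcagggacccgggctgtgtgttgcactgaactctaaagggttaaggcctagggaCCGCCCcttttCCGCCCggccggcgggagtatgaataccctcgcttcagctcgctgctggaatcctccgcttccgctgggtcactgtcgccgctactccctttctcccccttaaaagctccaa
Krt8: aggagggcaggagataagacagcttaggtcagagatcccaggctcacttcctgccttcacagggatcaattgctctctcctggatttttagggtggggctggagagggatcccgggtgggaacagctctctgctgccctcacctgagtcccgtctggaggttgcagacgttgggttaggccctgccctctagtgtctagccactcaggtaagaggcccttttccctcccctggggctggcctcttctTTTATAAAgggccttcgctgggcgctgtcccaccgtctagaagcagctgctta
Krt18: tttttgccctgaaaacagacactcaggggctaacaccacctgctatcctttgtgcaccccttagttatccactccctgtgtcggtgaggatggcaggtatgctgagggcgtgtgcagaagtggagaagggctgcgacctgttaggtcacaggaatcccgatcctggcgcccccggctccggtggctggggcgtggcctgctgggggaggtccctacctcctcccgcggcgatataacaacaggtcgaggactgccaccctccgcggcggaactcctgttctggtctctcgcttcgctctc

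The Vim window held 1 TATAAA and 2 CCAAT matches, with 11 CpG dinucleotides and 59.3% GC. The Nes window held 2 GC boxes on the reverse strand and 18 CpG, at a CpG observed to expected ratio of 0.70. Krt8 carried an overlapping pair of TATAAA matches, 1 on each strand, and 6 CpG at a ratio of 0.24. Krt18, its usual dimer partner, carried none of the 3 motifs and 17 CpG at a ratio of 0.60. By CpG ratio the value of 0.60 for Krt18 lay between those of Vim, 0.42, and Nes. The CpG ratio was 0.34 for Des and 0.64 for Krt7, and the table gave a pair of starts each for Lmna (0.043 and 0.32) and Lmnb2 (1.05 and 0.23). Both Lmna windows lay inside the gene, away from its annotated 5′ end at base 88509956, so the start at that end was not scored. Among 32851 promoters of the same length, outside chromosome 18, the median CpG ratio was 0.384 and 35.8% reached 0.6. TATAAA was present in 13.6% of them, GGGCGG in 35.7% and CCAAT in 37.4%. A match describes letters in this window and no binding was measured.

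Vim, Nes, Lmna and Lmnb1 had a count in every cell, Lmnb2 in 9 cells, Krt19 in 5, Des and Krt7 in 1 each, and Krt8 and Krt18 in none. Of the 10 genes, 4 (40%) were thus counted in all cells, where 35.3% of all genes were, and 2 (20%) in none, against 33.4% of all genes. The 2 counts of Lmnb1 in cell 3 are under the floor, and at a limit of 5 counts or of 1 CPM in every cell the 4 genes became 3. At 10 CPM or more in every cell there were 3 (Vim, Nes and Lmna), or 30%, against 21.5% of all genes. Over genes and cells, 64 of 120 values (53.3%) were above 0, near the 50.5% of the whole table. Each cell had counts for 4 to 7 of the 10.

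**Figure D1:**
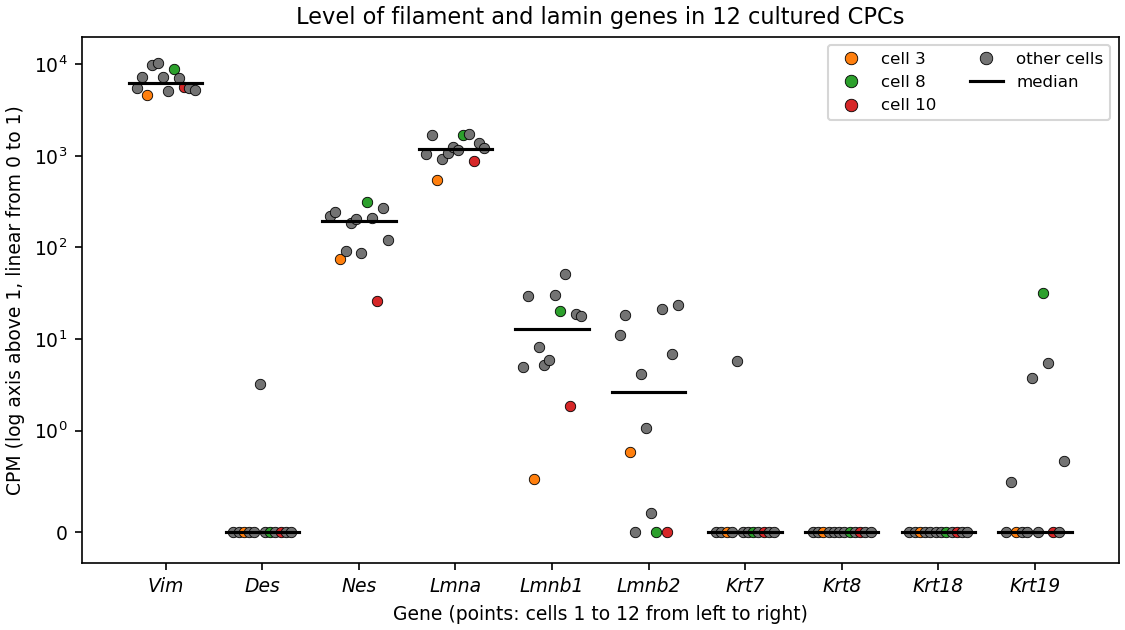
Level of each filament and lamin gene in each of the 12 cells, in CPM on an axis that is logarithmic above 1 and linear from 0 to 1, with 1 point per cell, cells 3, 8 and 10 coloured, and a bar at the median. Vim lies between 4612 and 10397 CPM and Lmna between 539 and 1729 CPM, Lmnb1 and Lmnb2 spread widely at low level, and Krt8 and Krt18 are at 0 in all 12 cells.

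Together the genes took 0.523% to 1.17% of a cell's counts, with a median of 0.797%. Vim alone made up 76.7% of their counts in cell 11 and 90.6% in cell 4. To compare genes with each other, counts were divided by the length of all annotated exons and again scaled to 1000000 per cell (TPM). On that scale the medians were 3894 for Vim, 576 for Lmna, 84.8 for Nes, 12.7 for Lmnb1 and 1.69 for Lmnb2, and 0 for Des and the keratins. Each of the first steps was larger than its spread over cells: on the log2(TPM + 1) scale the level of Vim exceeded that of Lmna by 2.81 ± 0.50 (SD, 12 cells), Lmna exceeded Nes by 3.14 ± 0.76, and Nes exceeded Lmnb1 by 2.56 ± 1.28, each in 12 of 12 cells. Lmnb1 exceeded Lmnb2 by 1.70 ± 1.64, in 10 of 12 cells. That step depended on the length used and on single cells: it was 1.45 ± 1.83, in 9 of 12 cells, without length correction, and 1.43 without cell 7. Below that the neighbours did not differ beyond their spread. The Lmnb2 to Des step was 1.57 ± 1.83, the Des to Krt7 step was 0.0036 ± 0.74, and Krt7 was below Krt19 by a difference of -0.99 ± 1.98.

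Vim (chromosome 2, 13573927 to 13582826, plus strand, mm10; a coding transcript of 9 exons) encodes vimentin. It ran from 4612 CPM in cell 3 through a median of 6321 to 10397 CPM in cell 5, with a mean of 6866 ± 1964 (SD, 12 cells). The highest cell was 2.25-fold above the lowest. Only 3 genes had a higher mean over the cells, and within single cells Vim ranked between 2 and 13. Its values formed no separate group: cells 5, 4 and 8 were the highest, at 10397, 9863 and 8925 CPM, and 3, 7 and 12 the lowest, at 4612, 5081 and 5199 CPM. The spread of Vim was then set against the trend over genes. Its coefficient of variation (CV) was 28.6%, and its log10 CV squared was 0.28 below the running median along the order of mean level, and 84.2% of 9701 genes assessed stood higher on this residual. The residual had an SD of 0.373 over all genes, so the values of the 5 filament and lamin genes assessed all lay within 1 SD of the trend. For Vim, with so few genes above it, the median rests nearly all on genes of lower mean.

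Nes (chromosome 3, 87971078 to 87980451, plus strand; 4 exons) encodes nestin, a long filament protein that assembles with vimentin. It ran from 26.1 CPM in cell 10 through a median of 196 to 312 CPM in cell 8, an 11.9-fold range, with a mean of 171 ± 88.6 and a CV of 52.0%. The low values were those of cell 10, then cell 3 at 74.9, cell 7 at 87.7 and cell 4 at 90.4 CPM, and the other cells lay at 121 CPM or above. Its residual was 0.25 above the running median, and 22.9% of genes stood higher. The difference of Vim minus Nes on the log2(CPM + 1) scale was 4.34 in cell 11, a median of 5.28, and 7.70 in cell 10, the cell with the endothelial markers. Across cells the Nes level and the endothelial sum ran in opposite directions (Pearson r = -0.83, Spearman rho = -0.64, n = 12). Without cell 10 the r was -0.54 and without cells 3 and 10 it was -0.40, so this value rested in large part on 1 cell. Lmna had r = -0.47 and rho = -0.70 with the same sum, and -0.39 and -0.54 without cells 3 and 10. The part of the endothelial transcripts in the Nes level was not tested.

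Des (chromosome 1, 75360329 to 75368579, plus strand; 9 exons) encodes desmin, the muscle member of the type III family. It was counted in cell 6 alone, with 12 counts (95% exact Poisson interval 6.20 to 21.0), or 3.19 CPM. In the other 11 cells it was at 0, below the floor. Of its exon bases, 220 overlap Gm15179 on the opposite strand, and whether the counting used strand is not given in the sources used here. Muscle markers did not follow Des. The smooth muscle and pericyte sum (9 genes, among them Acta2 and Tagln) was lowest in cell 6, at 16.7 CPM, and highest in cell 11, where Acta2 stood at 3668 CPM and Des at 0. Of 10 cardiomyocyte markers 7 were at 0 in all cells, and Tnnt2, the highest of the rest, reached 86.6 CPM in cell 12. The skeletal myoblast genes Myod1, Myf5, Myog and Pax7 were at 0 throughout.

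Other filament genes of types III and IV and of the lens added little. Of 10 such genes, 7 had a count in some cell, none had one in every cell, and Gfap, Nefh and Bfsp2 were at 0. Their summed level was 0.351 to 40.2 CPM with a median of 13.1. Those that reached 10 CPM were Sync, encoding syncoilin, at 40.1 CPM in cell 11, followed by 10.8 CPM, and Synm, encoding synemin, at 15.9 CPM in cell 5 and 12.8 in cell 10. Of 7 neural and glial markers, 3 were counted, with Sox2, Olig2, Gfap and Sox10 at 0 in every cell.

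Lmna (chromosome 3, 88480147 to 88509956, minus strand; 12 exons) encodes lamins A and C by alternative splicing, and the counts do not separate them. It ran from 539 CPM in cell 3 through a median of 1192 to 1729 CPM in cell 9, with a mean of 1220 ± 363 and a CV of 29.7%. Cells 9, 2 and 8 held the highest values, at 1729, 1709 and 1686 CPM, and cell 3 stood below cell 10, the next lowest at 888 CPM. As with Vim, the residual was below 0, at -0.21, and 77.2% of genes stood higher. Lmna lies 499.7 kb from Nes on chromosome 3, the closest pair among the 10 genes after Krt8 and Krt18.

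Lmnb1 (chromosome 18, 56707813 to 56753424, plus strand; 11 exons) encodes lamin B1. Promoters on this chromosome were left out of those scored, so the Lmnb1 promoter was not assessed. Its values were far lower and more spread, from 0.527 CPM in cell 3 through a median of 12.9 to 51.6 CPM in cell 9, with a mean of 16.2 ± 15.1 and a CV of 93.4%. Leaving out 1 cell moved the median to 8.15 or 17.7 CPM, the former without any 1 of the 6 cells above it. Cell 3 held 2 counts, for which the exact Poisson interval was 0.242 to 7.22 counts, whereas cell 9 held 246 counts, or 45.3 to 58.4 CPM. In all, 6 of the 12 cells reached 10 CPM, cells 2, 7, 8, 9, 11 and 12, and the other 6 lay at or under 8.15 CPM. The residual of Lmnb1 was 0.23, with 24.8% of genes higher.

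Lmnb2 (chromosome 10, 80901203 to 80918245, minus strand; 12 exons) encodes lamin B2. It was at 0 in cells 4, 8 and 10, had a median of 2.62 CPM, which leaving out any 1 of the 12 cells moved to 1.06 or 4.18, and reached 23.5 CPM, or 134 counts, in cell 12. Cells 9 and 2 followed at 21.4 and 18.5 CPM, then cell 1 with 38 counts (interval 26.9 to 52.2), and no other cell reached 10 CPM. Its CV was 124% and its residual 0.27, with 21.5% of genes higher. The B-type lamins were not high in the same cells throughout: cell 7 had 30.0 CPM of Lmnb1 and 0.190 CPM of Lmnb2, and cell 8 had 20.4 CPM and 0, whereas cell 1 had 17 counts of Lmnb1 and 38 of Lmnb2. Across the 12 cells their levels had r = 0.44 and rho = 0.29, and without cells 3 and 10 r was 0.26 and rho 0.12.

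**Figure D2:**
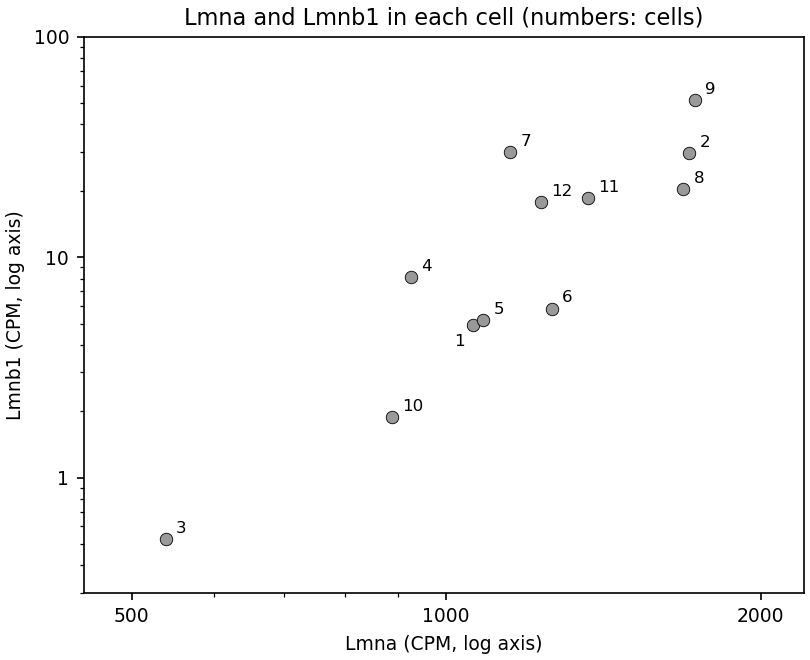
Lmnb1 level against Lmna level, both in CPM on logarithmic axes, with 1 numbered point per cell. Cell 3 sits lowest on both axes and cell 9 highest on both, and as log2(CPM + 1) the points give r = 0.87 over 12 cells and 0.72 over the 10 cells left without cells 3 and 10.

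The A-type to B-type balance differed widely between cells. Per length, Lmna stood 17.0-fold above Lmnb1 in cell 9 and 519-fold above it in cell 3, where counting error on the 2 Lmnb1 counts alone allowed 144 to 4282. The median ratio was 49.8. These ratios rest on the union exon lengths of 5838 bases for Lmna and 2962 for Lmnb1, and as plain count ratios the lowest, median and highest were 33.5, 98.2 and 1022. Cell 10, with 10 Lmnb1 counts, had a ratio of 240 with an interval of 130 to 500.4. Against Lmnb2 the ratio was lowest in cell 12, at 38.4 with an interval of 32.4 to 45.9. In the cells without an Lmnb2 count, Lmna stood at least 945-fold (cell 4), 1158-fold (cell 10) and 2270-fold (cell 8) higher per length, taken against 3 counts per library.

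Lmna and Lmnb1 levels ran together across cells, with exceptions such as cell 7, where Lmnb1 was above its median and Lmna below it, and cell 6, where the reverse held. On the log2(CPM + 1) scale r was 0.87 and rho 0.83 over 12 cells, and without cells 3 and 10 r was 0.72 and rho 0.71. Leaving out each cell in turn gave r from 0.79, without cell 3, to 0.92, without cell 7. The points share the library total in both axes. The total count itself had r = 0.32 with Lmna and 0.39 with Lmnb1, and 0.23 and 0.47 without cells 3 and 10. These were 0.09 and 0.24 without cell 3 alone, and 0.41 and 0.55 without cell 10 alone. The number of genes detected had r = -0.088 with Lmna and -0.21 with Lmnb1, and -0.23 and -0.50 without those cells. The part of depth and detection in the lamin relation was not tested. Lmna and Nes also ran together, with r = 0.68 and rho = 0.76, and 0.65 without cells 3 and 10. The relation of Nes to Lmnb1 (r = 0.54) was 0.03 without those cells. Among the genes counted in every cell Vim had lower values: r was 0.35 with Lmna, 0.35 with Nes and 0.17 with Lmnb1, and -0.04, 0.12 and -0.31 in that order without cells 3 and 10.

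**Figure D3:**
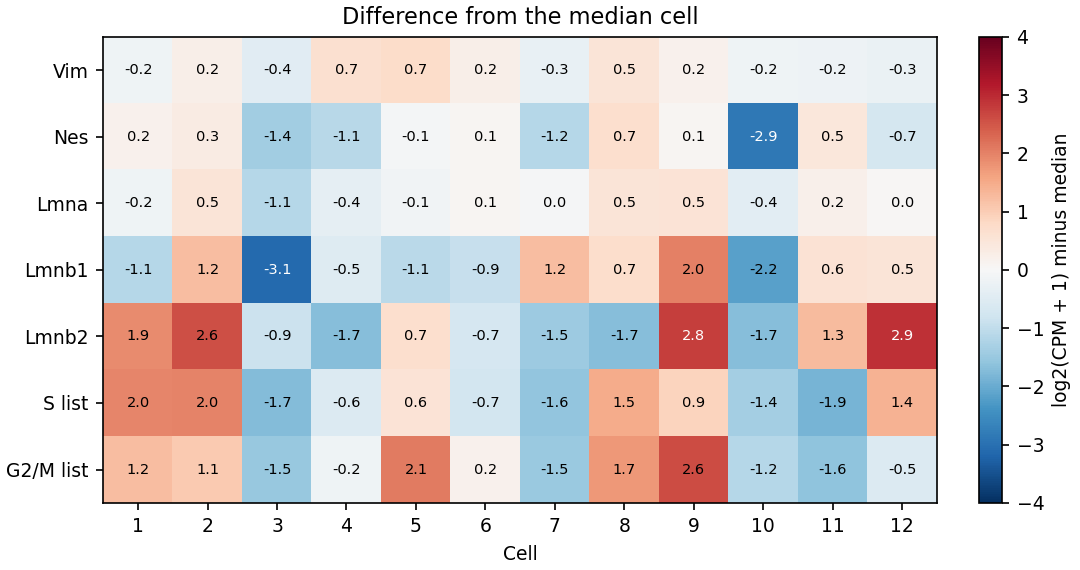
Level of Vim, Nes, Lmna, Lmnb1 and Lmnb2, and of the summed S and G2/M lists, in each cell as the difference of log2(CPM + 1) from the median of its row over the 12 cells, as a colour grid with cells along the horizontal axis. Cells 3 and 10 are below the median for all 5 genes, and cells 2 and 9 are above it for all 5. Cell 8 is above it for Vim, Nes, Lmna and Lmnb1 and below it for Lmnb2.

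Lamin and filament levels were set against the cell cycle, in which lamins are disassembled at mitosis and vimentin is rearranged. The S-phase genes summed to 546 CPM in cell 11, the lowest, and to 7900 CPM in cell 2, the highest. For the G2/M genes cell 11 was again the lowest, at 968 CPM, and cell 9 the highest, at 17796 CPM. Vim had r = 0.66 and rho = 0.69 with the G2/M sum, with r = 0.57 without cells 3 and 10 and 0.49 without cell 11 too. With the S sum its r was 0.35, and 0.16 and -0.016 without those cells in turn. Lmna had r = 0.55 with the S sum and 0.56 with the G2/M sum, and 0.33 and 0.37 without cells 3 and 10. Lmnb1 had 0.38 and 0.34, and 0.01 and -0.03 without those cells. Lmnb2 had 0.59 and 0.38, and 0.50 and 0.25 without them. The lamin genes thus differed in how far their values with the cycle lists rested on cells 3 and 10, a difference that was not tested. Nes had 0.54 with the S sum and 0.58 with the G2/M sum, 0.36 and 0.47 without cells 3 and 10, and 0.68 and 0.77 without cell 11 too. Cell 11, lowest on both cell cycle sums, still held 18.6 CPM of Lmnb1 and 1366 CPM of Lmna, both above their medians.

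The genes most like each filament gene were taken by r of log2(CPM + 1) over the 12 cells, from 5487 genes that averaged 30 CPM or more and had counts in 10 cells or more. For Vim they included Nudt21 (r = 0.88) and Lsm14a (0.86). For Nes they were Tubb5 (0.94), Pebp1 (0.93) and Cenpq (0.89). For Lmna they were Pcbp4 (0.92), Arhgdia (0.91) and Thop1 (0.90), and for Lmnb1 they were Rnf187 (0.94), Thop1 (0.93) and Arhgdia (0.92). Without cells 3 and 10 the r was 0.86 for Nudt21 and 0.83 for Lsm14a with Vim, 0.75 for Cenpq to 0.87 for Tubb5 with Nes, 0.77 for Arhgdia to 0.84 for Pcbp4 with Lmna, and 0.87 for Rnf187 to 0.91 for Arhgdia with Lmnb1. Arhgdia and Thop1 stood among the closest 3 of both Lmna and Lmnb1. An r of 0.8 or more was reached by 15 of the searched genes for Vim, 43 for Nes, 32 for Lmna and 37 for Lmnb1, or 0.273% to 0.784%. These are the top values of a search over 12 points, and no more is read from them.

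Most partners of the lamina were counted in most cells. Of 17 genes for lamina-binding membrane proteins, their nuclear partners and lamin processing enzymes, 16 were counted in every cell and the exception, Syne3, in 9 cells. Among the former, Syne2 was under the floor in cell 7, at 0.380 CPM, and Sun2 was at 0.791 CPM in cell 3. Their sum had a median of 1068 CPM, with 820 CPM in cell 11 as the lowest value and 1542 CPM in cell 9 as the highest. Banf1, the chromatin bridge to LEM-domain proteins, had a median of 361 CPM and ran from 189 to 500.2 CPM. Tmpo, which encodes the lamina-associated polypeptide LAP2, ran from 12.8 to 319 CPM, with cells 8, 9 and 12 highest. Lbr, the lamin B receptor, had its lowest value, 2.85 CPM, in cell 7 and its highest, 126 CPM, in cell 9. Cell 7 thus had the lowest Lbr and, after cell 9, the highest Lmnb1. Tmpo and Lbr are also members of the G2/M list. The linker genes Sun1 and Sun2 had medians of 35.1 and 3.55 CPM.

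Lamins B1, B2 and prelamin A are farnesylated and then trimmed and methylated at the C terminus. Fnta, the farnesyltransferase alpha subunit, had 137 to 314 CPM, with a median of 223. Zmpste24, the protease that matures prelamin A, had 19.6 to 106 CPM, and Rce1, which removes the last residues after farnesylation, 13.5 to 62.5 CPM. Icmt, the methyltransferase of the pathway, had 1.64 to 16.2 CPM. Counts for all 4 of these processing genes were present in all cells.

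Among the cytolinkers, which tie filaments to each other and to junctions, Plec (156 to 608 CPM), Dst (50.3 to 229 CPM) and Macf1 (49.4 to 155 CPM) were counted in every cell. The epithelial members Evpl and Ppl were counted in 2 and 3 cells and stayed at or under 3.21 and 8.44 CPM. Cryab, a small heat shock protein that binds vimentin and desmin, had a median of 994 CPM. Its lowest value was 50.3 CPM, in cell 10, and its highest 12660 CPM, in cell 3, against 2573 CPM in the next. Cells 3 and 10, the extremes of Cryab, were also the cells with the lowest Lmna, Lmnb1 and Nes.

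Keratin transcripts were sparse. Krt8 (chromosome 15, 101996698 to 102004482, minus strand; 9 exons) and Krt18 (chromosome 15, 102028180 to 102032027, plus strand; 7 exons) lie 23.7 kb apart and encode the first keratin pair of simple epithelia. Both were at 0 in all 12 cells, below a floor of 0.527 to 0.869 CPM per cell. Of the 75-base windows of Krt8 transcripts, 23.5% also occur in other annotated transcripts, which can take uniquely mapped reads away from a gene, but for Krt18 the share was 0%. With the retained 76.5% of Krt8 windows and all of those of Krt18, no unique read was listed for either.

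Krt7 (chromosome 15, 101411043 to 101430313, plus strand), a type II keratin of ducts, was counted in cell 5 alone, with 29 counts (95% exact Poisson interval 19.4 to 41.6), or 5.77 CPM. Krt19 (chromosome 11, 100140810 to 100148665, minus strand; 6 exons), a small type I keratin of ducts and mesothelium, was counted in 5 cells. It stood at 32.0 CPM in cell 8, with 176 counts (interval 151 to 204), and at 5.45 CPM in cell 9 and 3.72 CPM in cell 6. Cells 12 and 2 held 4 and 2 counts, and the other 7 cells none. Cell 8 was thus 5.87-fold above the next cell and had no count for Krt7, Krt8 or Krt18.

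**Figure D4:**
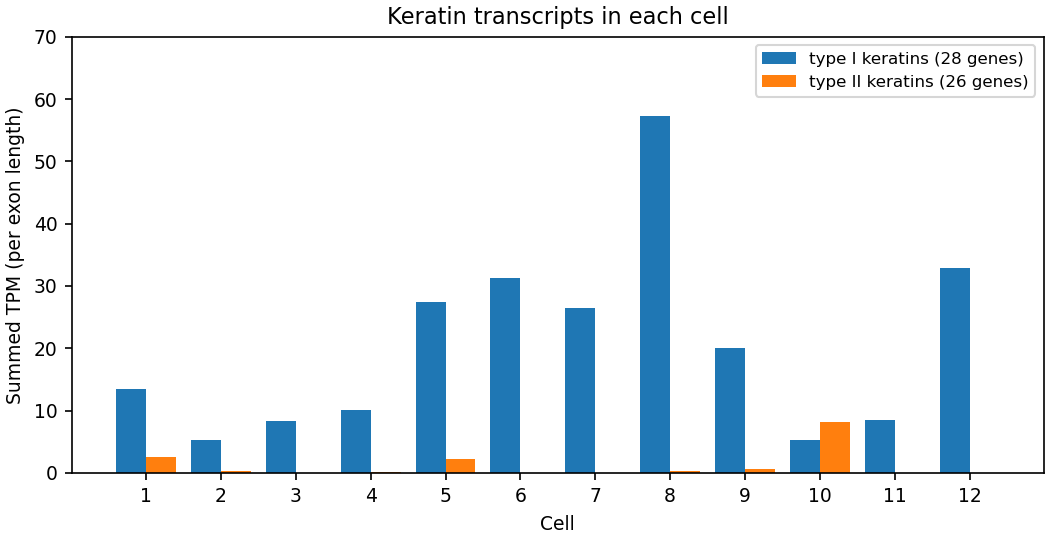
Summed level per exon length (TPM) of the 28 type I and the 26 type II keratin genes of the table in each of the 12 cells, as bars from 0. Type I exceeds type II in every cell except cell 10, and the type I bar is highest in cell 8, at 57.3 TPM, of which Krt19 is 48.4 TPM.

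Of all 54 keratin genes in the table, 10 had a count in some cell and 44 in none, and 3 (Krt10, Krt19 and Krt80) reached 10 CPM. Krt10, a type I keratin best known from the upper epidermis, was the keratin counted in every cell, at 1.88 to 20.0 CPM with a median of 6.61. Per length, the type I sum ran from 5.20 TPM in cell 2 through a median of 16.7 to 57.3 TPM in cell 8. The type II sum ran from 0 through a median of 0.210 to 8.11 TPM in cell 10, where it came from Krt80 alone. It was at 0 in 5 cells, and type I exceeded type II in 11 of 12 cells. In cell 8 the type II count was Krt80 at 0.727 CPM.

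Epithelial markers stayed near the floor. Of 8 epithelial genes, 4 were counted in some cell, Cdh1, Krt5, Krt14 and Esrp1 were at 0 in all 12, and the summed level was at most 2.92 CPM, in cell 6, from Epcam. Of 7 mesothelial and epicardial genes, 5 were counted and Upk3b and Muc16 were at 0. Their sum ran from 10.5 to 65.9 CPM. Tbx18, the epicardial and mural gene of the list, was counted in every cell, with a median of 24.4 and a highest value of 42.2 CPM in cell 4, and Msln, counted in 4 cells, and Upk1b, counted in 7, had highest values of 38.8 CPM in cell 2 and 35.1 CPM in cell 10. Among 9 desmosome genes, which anchor keratin or desmin at the membrane, Dsg2 and Dsc3 were at 0 and Jup and Pkp4 were counted in every cell. Jup, encoding plakoglobin, which adherens junctions also hold, reached 338 CPM in cell 10, followed by 125 CPM. Dsp, encoding desmoplakin, which binds the filaments themselves, had counts in 3 cells, with 17.8 CPM in cell 2 as the highest value.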

How the data were processed

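Single-cell cDNA was made with Smart-Seq v4 and libraries with Nextera XT, and paired 75-base reads were deposited as whole-number counts per gene. Per the study's methods, the authors aligned reads with STAR 2.5.2b to mm10 and kept unique alignments. The counting program, its annotation and its use of strand are not given in the sources used here. Cells were taken as labelled, and all 12 formed 1 group. No doublet caller was run on 12 hand-picked cells, and no cell was left out.

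Counts were divided by the cell total for CPM, with a pseudocount of 1 on the log2 scale. For TPM they were divided by union exon length from GENCODE vM21 (GRCm38, as mm10); 98.4% of symbols matched. Positions, exon numbers and overlaps came from that annotation. Intervals are 95% exact Poisson intervals, and the floor is 3 counts. The dispersion residual was computed for genes with counts in at least 3 cells and a mean of at least 5 CPM. The 10 genes and all gene lists were chosen with earlier results of these data known. Named genes were these 10, the list genes at 0 or highest in a cell, and the 3 genes closest to each of the 4 filament genes counted in every cell, of which 1 is not reported here. The S, G2/M, fibroblast, endothelial, blood and other marker lists served as description; the fibroblast sum was 219 to 6764 CPM. The dispersion residual and the search for the closest genes were tried on simulated data, and the other steps were not. Alternatives were other scalings (edgeR 4.0.16 TMM, median of ratios), thinning, length definitions, Spearman correlation and leaving out cells. Python 3.11.15, pandas 2.3.3, scipy 1.17.1 and R 4.3.3 were used. The cells carry no condition to compare, so no p-value is given.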

Additional observations from a re-analysis of the deposited data

How the results depend on the processing

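Of 116 recomputed values other than those leaving out 1 cell, 15 moved, 3 of them to the other sign. Moved means by over 1 SD across cells for a level or difference, outside the range from leaving out 1 cell for r, outside the exact binomial interval for the detected share, and over 1.5 times for a count of genes. Dispersion residuals were judged by their SD over genes, 0.373, which was larger in size than each residual itself. Medians of 0 (Des, Krt7, Krt19) could not move. The SD of Lmnb1 (15.1 CPM) and of Lmnb2 (9.06 CPM) exceeded the medians (12.9 and 2.62 CPM). A fall of either median to 0 would thus not have counted as moved. A detection limit of 10 CPM in place of 1 count gave 39.2% of values detected. The Lmna to Nes difference was 3.96 with the longest protein-coding transcript as length, an alternative chosen after seeing the data. Without cells 3 and 10 the r was 0.72 for Lmna and Lmnb1, -0.043 for Vim and Lmna, 0.57 for Vim and the G2/M sum, and 0.013 and -0.027 for Lmnb1 with the S and G2/M sums. Without cells 3, 10 and 11, chosen after seeing the data, these were 0.72, -0.016, 0.49, 0.082 and 0.029 in the same order. The Lmna and Nes relation was 0.76 as Spearman's rho and 0.61 under median-of-ratios scaling, under which Vim and the G2/M sum had 0.56. Under the same scaling the r of Vim and Lmna was 0.12 against 0.35 with CPM, a fall that the rule above did not count as moved. Leaving out each cell in turn gave r from 0.08 to 0.52 for Vim and Lmna and from 0.58 to 0.78 for Vim and the G2/M sum; the cause was not tested. Against CPM, the cells shifted by -0.16 to 0.26 (log2) under median of ratios and by -0.13 to 0.24 under TMM. No paired analysis was possible because the cells form 1 group. With 1 sample of cells and no molecular identifiers, a count of 0 cannot be told from a level up to the floor of 3 counts. Positive counts under that floor remain uncertain.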
